A study of Mus musculus with 12 samples.

Results

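The exit of wild-type (WT) mouse embryonic stem cells (ESCs) from the naive state was read from RNA before induction (0 h) and 24 h after it. The comparison rests on 4 of the 12 libraries of the series, 2 of ESCs and 2 of spheroids, and takes every gene that passed a filter on low counts. All 12 libraries came from the R1 ESC line, 6 of them WT and 6 from cells homozygous for a *Cidea* knockout (KO). The 0 h cells were grown with 10% foetal bovine serum (FBS) and leukaemia inhibitory factor (LIF). The 24 h cells were cultured with 15% FBS and without LIF in growth factor-reduced Matrigel, in which they were embedded per the labels. For molecular work the study's methods describe instead single cells seeded on a Matrigel coat, under medium that also held Matrigel. ESCs were harvested with TrypLE, whereas spheroids were released from Matrigel in Cell Recovery Solution during 30 min on ice. Time, loss of LIF, serum, matrix and harvest therefore changed together and cannot be told apart. With 2 libraries a group of 1 cell line, p-values speak for these samples only. The spread behind them was estimated over all 12 libraries, those outside the comparison included.

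ESCs kept in serum and LIF stand close to the epiblast of the blastocyst before implantation. LIF binds a receptor complex of LIFR and gp130 and activates STAT3, which maintains *Klf4*, *Tfcp2l1* and other members of the naive transcription factor network. FGF4, acting through ERK, drives cells out of this state. As the network is lost, the epiblast passes through a formative phase marked by *Otx2*, *Pou3f1* and *Fgf5*, gains the de novo DNA methyltransferases, and forms a polarised epithelium around a lumen.

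Depth was 30.4 to 35.59 M estimated counts in the 4 libraries, and 1 library of KO spheroids at 24 h stood apart in the number of genes detected at equal depth (15472, against 17639 to 19380 in the WT libraries compared). That library enters the shared estimate of spread and the filter on low counts. Without it, 18683 genes were tested in place of 17424, and 3543 passed the threshold in place of 2615. Pluripotent cell markers were all expressed, with a summed level of 3610 and 3720 TPM (kallisto's level per transcript length, scaled to the same total in each library) in ESCs and 3620 and 3660 at 24 h. Marker lists of other cell types had far lower summed levels, the highest being that of germ cells, where every marker reached 1 TPM in at least 1 of the 4 libraries. Of 10 fibroblast markers, 7 were tested and none passed the threshold in edgeR or DESeq2 or had an unadjusted p under 0.05, with a summed level of 19.3 to 31.6 TPM in ESCs and 21.9 in both 24 h libraries, and *Col3a1* and *Postn* were at 0 in all 4 libraries. Of 10 extraembryonic endoderm markers, 8 were tested and 2 were called higher (*Dab2* and *Cubn*), with summed levels of 12.2 to 16.3 TPM in ESCs and 12.8 to 13.6 TPM at 24 h and *Afp* and *Ttr* at 0. The call of *Dab2* was lost without the first ESC library (adjusted p = 0.073) or the second 24 h library (adjusted p = 0.072), and that of *Cubn* without the second ESC library (adjusted p = 0.065). Of 8 trophoblast markers *Tfap2c* fell, and the summed level of that list was 25.1 and 25.7 TPM, then 15.4 and 16.1 TPM. Of 7 germ cell markers *Prdm1* fell, a call lost without the first 24 h library. The summed level of all 7 germ cell markers was 61.6 and 64.4 TPM, then 59.2 and 68.2 TPM. No member of the mesoderm list (6.52 and 8.69 TPM, then 8.82 and 8.40 TPM) or the neural list (13.1 and 12.2 TPM, then 24.1 and 15.2 TPM) was called in edgeR. At an unadjusted p under 0.05 there were 1 mesoderm and 2 neural genes, and DESeq2 called 0 and 1. In such bulk samples, fewer cells of a type and less RNA per cell cannot be told apart.

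A total of 17424 genes were tested, of which 2615 (15.0%) passed an adjusted p of 0.05 in edgeR. Of these, 1313 (7.54% of genes tested) rose and 1302 (7.47%) fell from 0 to 24 h. Most changes were modest. The median log2 change was 0.56 among the genes that rose and -0.63 among those that fell, while 299 rose and 327 fell by 2-fold or more, and 66 rose and 28 fell by 8-fold or more. The number called depended on which library was left out, and was 1326 without the first 24 h library and 1680 without the second ESC library. Genes called in the main fit and in either of those fits moved in the same direction in both.

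**Figure D1:**
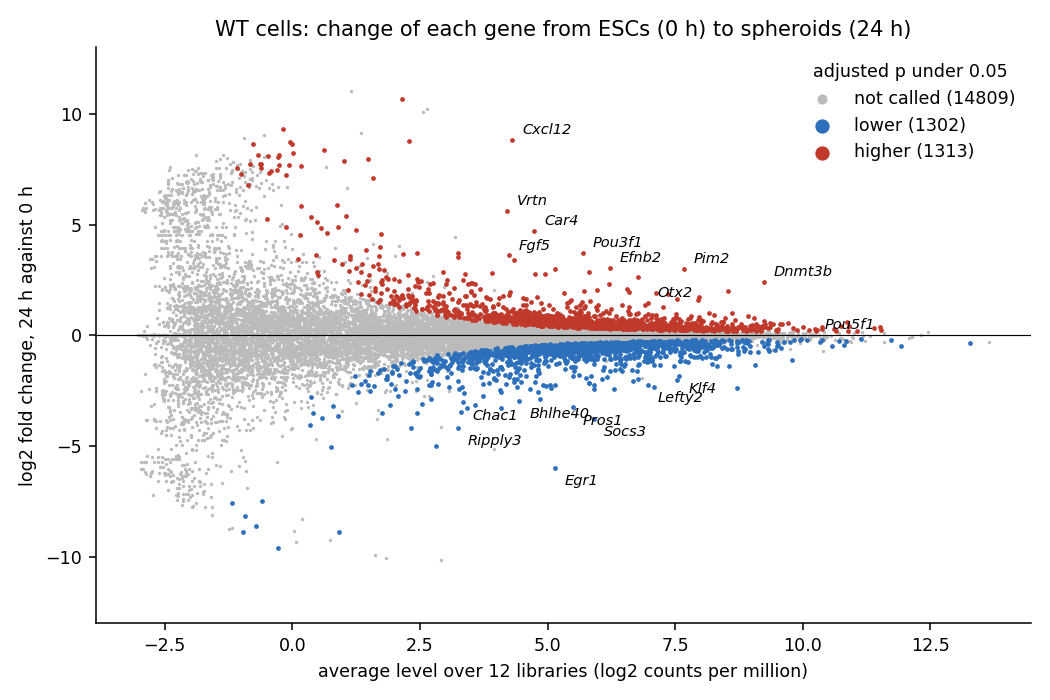
Each point is a gene, with its average level over the 12 libraries on the x axis (log2 of counts per M counts) and its log2 fold change between WT spheroids at 24 h and WT ESCs at 0 h on the y axis. Red points are the 1313 genes that rose and blue points the 1302 that fell at an adjusted p under 0.05, and *Egr1*, *Ripply3* and *Socs3* lie lowest among the labelled genes.

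Well-expressed here means a mean log2 of counts per M counts of at least 3 over all 12 libraries. Among such genes, the 10 with the largest falls were *Egr1*, *Ripply3*, *Socs3*, *Grin1*, *Ahnak2*, *Serpinb6c*, *Pros1*, *Patl2*, *Chac1* and *Bhlhe40*. *Ripply3*, a transcriptional corepressor, was at 29.4 and 32.9 TPM in ESCs and at 1.34 and 2.24 TPM in spheroids. *Pros1*, which encodes protein S, fell from 49.2 and 55.1 TPM to 5.81 and 5.56 TPM. In neither gene did the groups overlap, as in 51.7% of all genes tested, and the replicates of *Pros1* lay close together. The log2 change was -4.18 ± 0.59 (SE) for *Ripply3* (adjusted p = 0.00082) and -3.25 ± 0.13 for *Pros1* (adjusted p = 2.5e-12). *Bhlhe40*, a basic helix-loop-helix repressor, was at 22.7 and 24.8 TPM and then at 7.44 and 3.47 TPM. Its groups were apart although the 24 h replicates differed from each other (log2 change -2.95 ± 0.22, adjusted p = 1.2e-08). With transcript lengths as offsets in the fit, the log2 change of *Bhlhe40* was smaller, at -2.2 (adjusted p = 0.0027).

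The 10 largest rises among well-expressed genes were *Cxcl12*, *Vrtn*, *Car4*, *Pou3f1*, *Enpp2*, *Fgf5*, *Gadd45g*, *Sema6a*, *Efnb2* and *Pim2*. The mean level used takes in the 48 h libraries, where *Fgf5*, *Enpp2* and *Sema6a* stood well above their 24 h level. In the libraries compared these 3 genes were low, with 24 h counts of 269 and 197, 228 and 224, and 148 and 198. *Cxcl12*, a chemokine, had 1 and 2 counts in the ESC libraries and 816 and 879 counts at 24 h. Relative to all counts, its level was 502-fold that of ESCs, with a 95% exact interval of 171 to 2440 that covers counting error only. *Car4*, a carbonic anhydrase of the cell surface, was at 0.699 and 1.17 TPM in ESCs and at 27.1 and 25.6 TPM at 24 h (log2 change 4.71 ± 0.24, adjusted p = 4.3e-11). *Efnb2*, a membrane ligand of Eph receptors, was at 3.63 and 4.07 TPM and then at 33.7 and 29.5 TPM (log2 change 3.06 ± 0.12, adjusted p = 1.5e-12). In all 3 genes both spheroid libraries lay far above both ESC libraries. By 48 h, *Car4* stood at 92.6 and 78.0 TPM, whereas *Cxcl12* (10.3 and 11.2 TPM, from 10.8 and 11 TPM at 24 h) and *Efnb2* (29.3 and 27.0 TPM) were near their 24 h levels.

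By absolute level, the largest fall in mean TPM was that of *Eef1a1* (difference -2200 TPM), followed by that of *Apoe* (-1480 TPM), which encodes a carrier of cholesterol and other lipids. *Apoe* was at 1717 and 1928 TPM in ESCs and at 341 and 346 TPM at 24 h (log2 change -2.38 ± 0.095, adjusted p = 7.2e-12). Smaller relative falls were seen in *Eef1a1*, *Rps24*, *Ftl1-ps1* and *Rps15a*, all with near-identical copies in the genome, which makes their values uncertain. *Rps24* was no longer called without the first 24 h library (adjusted p = 0.11) or the second ESC library (adjusted p = 0.13). The 5 largest rises in level were *Ptma*, *Eif4a1*, *Pfn1*, *Gpx4* and *Gpx1*. The last pair encode glutathione peroxidases, which reduce peroxides, GPX4 those of membrane lipids. *Gpx1* was at 202 and 209 TPM and then at 656 and 618 TPM (log2 change 1.62 ± 0.12, adjusted p = 1.9e-07), and *Gpx4* at 1159 and 1169 TPM and then at 1731 and 1652 TPM (log2 change 0.51 ± 0.071, adjusted p = 3.7e-05).

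Most naive factors fell, to unequal depths. This list and those below were chosen with earlier results of these data known, so their shares are not independent of the data. Of 18 tested, 13 fell, 1 rose (*Fgf4*) and 4 did not pass the test, against 7.47% of all genes tested, and their median log2 change was -0.88 where that of all genes was 0.00. *Tfcp2l1*, a target of STAT3, was at 62.9 and 70.9 TPM in ESCs and at 16.5 and 16.6 TPM in spheroids. *Klf4*, another target of STAT3, went from 182 and 176 TPM to 49.9 and 52.9 TPM. Both were clearly separated between groups, with log2 changes of -2.03 ± 0.13 (adjusted p = 3.9e-08) and -1.82 ± 0.090 (adjusted p = 3.8e-11). *Tcl1*, a coactivator of AKT kinase, fell by a similar amount (-1.95 ± 0.11, adjusted p = 2.9e-10).

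Other naive factors fell by smaller amounts. *Esrrb*, an orphan nuclear receptor of the core naive network, was at 390 and 386 TPM and then at 167 and 160 TPM (log2 change -1.36 ± 0.069, adjusted p = 5.5e-11). *Klf2* (-1.39 ± 0.15), *Klf5* (-1.36 ± 0.11) and *Tbx3* (-1.38 ± 0.14) changed by nearly the same amount. *Nanog* went from 278 and 292 TPM to 166 and 184 TPM (log2 change -0.76 ± 0.083, adjusted p = 1.8e-06), and *Zfp42*, which encodes REX1, from 530 and 524 TPM to 432 and 418 TPM (-0.36 ± 0.073, adjusted p = 0.0015). Replicates of these genes stayed close together, and the groups were apart. *Dppa5a*, one of the most abundant naive transcripts, overlapped between the groups at 2444 and 2794 TPM and 2441 and 2608 TPM (log2 change -0.11 ± 0.083, adjusted p = 0.45). *Prdm14* (-0.35 ± 0.25, adjusted p = 0.42), *Nr0b1* (-0.27 ± 0.089, adjusted p = 0.050) and *Dppa3* (-0.34 ± 0.66, adjusted p = 0.82) also missed the threshold. At 48 h, *Zfp42* was at 182 and 191 TPM and *Nanog* at 73.5 and 75.2 TPM, both under their 24 h levels.

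General pluripotency factors, which naive and primed cells share, went both ways. *Pou5f1*, which encodes OCT4, was at 1488 and 1511 TPM in ESCs and at 1567 and 1580 TPM in spheroids. The log2 change by counts was 0.02 ± 0.067 (adjusted p = 0.92), although the TPM of the groups did not overlap. *Lin28a*, an RNA-binding protein that blocks maturation of let-7, was at 96.1 and 110 TPM and then at 219 and 217 TPM (log2 change 1.02 ± 0.066, adjusted p = 1.6e-09). *Utf1*, a chromatin-associated factor, rose alongside it, from 263 and 241 TPM to 535 and 468 TPM (0.93 ± 0.092, adjusted p = 7.4e-07). *Tdgf1*, a coreceptor of Nodal, fell from 604 and 651 TPM to 394 and 398 TPM (-0.75 ± 0.068, adjusted p = 1.6e-07). *Sox2* was at 359 and 382 TPM and then at 286 and 319 TPM (-0.35 ± 0.080, adjusted p = 0.0047). Its call was lost without the first 24 h library (adjusted p = 0.13) or the second ESC library (adjusted p = 0.067). In all, 6 of 12 rose and 2 fell, against 7.54% and 7.47% of all genes tested, and 3 rose and 1 fell without the first 24 h library.

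Most formative and primed factors rose, in a list chosen with earlier results of these data known. Of 20 tested, 14 rose and 1 (*Etv4*) fell, against 7.54% of all genes tested, and the median log2 change was 1.22. Each leave-one-out fit also gave 14 higher and 1 lower. *Pou3f1*, a POU factor of the epiblast around implantation, was at 1.23 and 0.859 TPM in ESCs and at 15.8 and 12.6 TPM in spheroids, a 13.1-fold rise (log2 change 3.71 ± 0.18, adjusted p = 1.8e-11). *Fgf5* was at 0.183 and 0.489 TPM and then at 6.14 and 3.41 TPM (3.61 ± 0.46, adjusted p = 0.00022). Neither had reached its 48 h level, which was 51.2 and 55.2 TPM for *Pou3f1* and 38.8 and 38.4 TPM for *Fgf5*. *Otx2*, a homeobox factor that redirects OCT4 to new enhancers, was already at 43.0 and 47.2 TPM in ESCs and stood at 126 and 132 TPM at 24 h (1.48 ± 0.096, adjusted p = 1.5e-09).

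Some members, *Grhl2* and *Fgf15* among them, were close to their 48 h level by 24 h, and others were not. *Grhl2*, which activates epithelial genes in the formative state, was at 6.39 and 7.47 TPM at 0 h, at 38.8 and 37.7 TPM at 24 h and at 41.5 and 41.7 TPM at 48 h. *Fgf15* was at 5.18 and 5.73 TPM, 40.0 and 38.2 TPM, and 37.4 and 41.9 TPM at the same times. For both, the step between 0 and 24 h was the larger one, with log2 changes of 2.34 ± 0.11 (adjusted p = 1e-11) and 2.78 ± 0.17 (adjusted p = 1e-09). *Pim2*, a serine/threonine kinase, was at 16.5 and 14 TPM, 133 and 109 TPM, and 381 and 334 TPM (3.00 ± 0.10 from 0 to 24 h, adjusted p = 1.9e-13). *Sall2* (2.85 ± 0.14), *Sox11* (1.51 ± 0.15), *Zic2* (0.96 ± 0.091) and *Zic5* (0.87 ± 0.099) rose too. From 24 to 48 h, *Sall2* went from 21.3 and 16.2 TPM to 27.7 and 27.3 TPM, and *Sox11* from 4.09 and 3.67 TPM to 8.90 and 8.47 TPM. *Zic2* went from 79.8 and 70.8 TPM to 87.5 and 87.2 TPM, and *Zic5* from 47.3 and 47.1 TPM to 55.9 and 48.2 TPM. *Sox3* (0.55 ± 0.41, adjusted p = 0.46) and *Cdh2*, which encodes N-cadherin (0.31 ± 0.20, adjusted p = 0.37), did not pass the test.

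**Figure D2:**
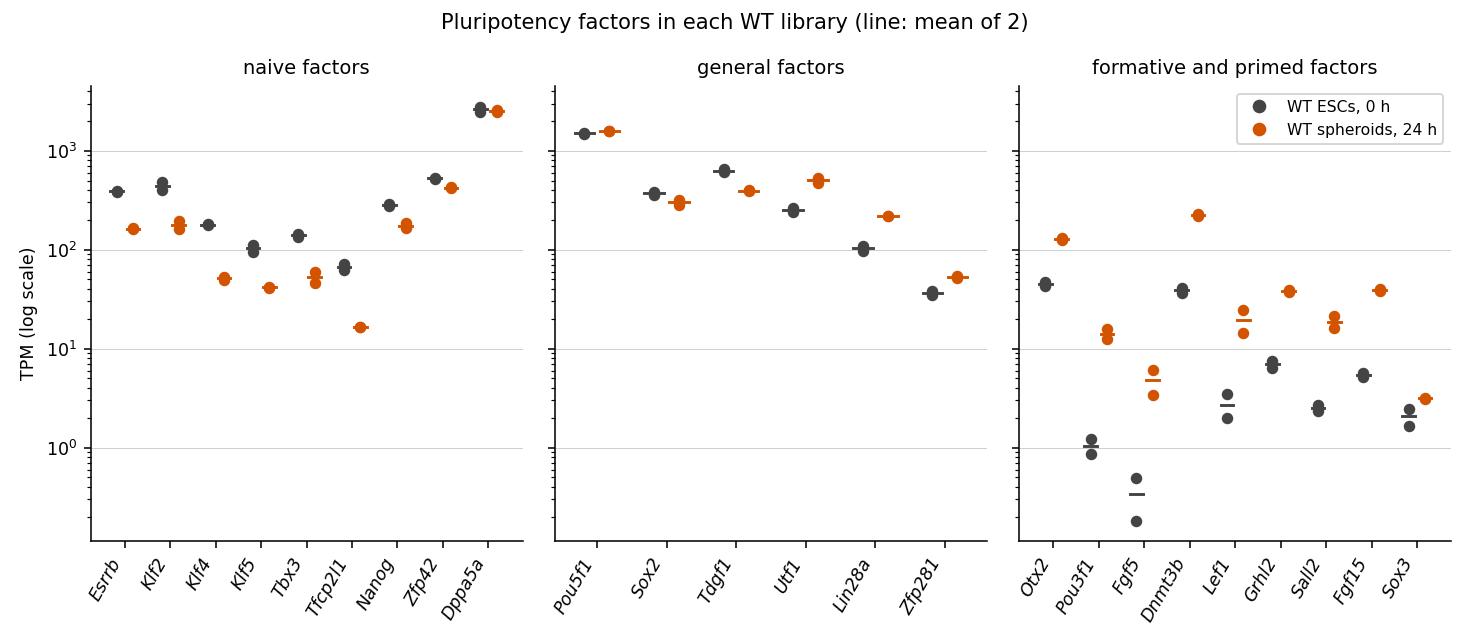
TPM on a log axis for pluripotency factors in 2 libraries of WT ESCs at 0 h (dark points) and 2 of WT spheroids at 24 h (orange points), with a line at each mean. Naive factors such as *Tfcp2l1* (62.9 and 70.9 TPM, then 16.5 and 16.6 TPM) lie lower at 24 h and formative factors such as *Pou3f1* lie higher, while *Pou5f1* and *Dppa5a* differ little.

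The DNMT3 family, which sets new DNA methylation, was higher. Over the list of 9 DNA methylation genes, 3 rose (7.54% of all genes tested did) and 1 fell (7.47% of all did). *Dnmt3b*, a de novo methyltransferase, was at 40.9 and 36.9 TPM in ESCs and at 232 and 218 TPM in spheroids. *Dnmt3a*, its partner enzyme, was at 46.2 and 41.5 TPM and then at 234 and 219 TPM. Both rose several-fold in both libraries, by log2 changes of 2.42 ± 0.069 (adjusted p = 1.7e-14) and 2.02 ± 0.069 (adjusted p = 1.9e-13). *Dnmt3l*, a cofactor without activity of its own, was at 293 and 269 TPM and then at 380 and 339 TPM (0.29 ± 0.076, adjusted p = 0.013), a call lost without the first 24 h library (adjusted p = 0.20) or the second ESC library (adjusted p = 0.15). *Dnmt1*, which copies methylation at replication, overlapped between the groups at 101 to 107 TPM and 101 to 108 TPM (-0.05 ± 0.069, adjusted p = 0.75), and its partner *Uhrf1* was not called (0.13 ± 0.065, adjusted p = 0.21). *Tet1* was not called (-0.33 ± 0.16, adjusted p = 0.24), and the call of *Tet2* (-0.63 ± 0.16, adjusted p = 0.030) was lost on leaving out any 1 of the 4 libraries (adjusted p between 0.077 and 0.20).

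The LIF and STAT3 pathway moved in 1 direction among the genes called. Of 18 members tested, 12 fell and none rose, where 7.47% of all genes tested fell and 7.54% rose, with a median log2 change of -0.97, and between 9 and 10 fell when any 1 of the 4 libraries was left out. Its members overlap the naive list in *Klf4* and *Tfcp2l1*. Other lists share called members too, so their counts are not independent. The FGF list shares *Fgf4* with the naive list and *Fgf5*, *Fgf15* and *Etv4* with the formative list. *Junb*, *Egr1*, *Tdh*, *Tdgf1*, *Lef1*, *Dnmt3b* and *Podxl* were likewise counted in several lists. *Socs3*, the feedback inhibitor that STAT3 induces and that binds gp130, was at 85.4 and 91.6 TPM in ESCs and at 7.30 and 6.90 TPM in spheroids. The 13.5-fold fall (log2 change -3.76 ± 0.17, adjusted p = 9.6e-11) was the third largest among well-expressed genes, and *Socs3* stood at 2.34 and 1.93 TPM at 48 h. *Stat3* itself was at 72.1 and 99.1 TPM and then at 35.9 and 28.9 TPM (-1.35 ± 0.10, adjusted p = 1.2e-08).

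Several other transcripts known to respond to STAT3 were lower too. *Bcl3*, an atypical inhibitor of NF-kappaB, was at 34.9 and 30.3 TPM and then at 14.1 and 6.84 TPM (-1.76 ± 0.24, adjusted p = 3.2e-05). *Junb*, an AP-1 subunit, was at 36.7 and 31.2 TPM and then at 11.7 and 11.5 TPM (-1.61 ± 0.17, adjusted p = 1.6e-06). The groups of both were apart. The kinase genes *Pim3* (-1.55 ± 0.095, adjusted p = 8.1e-10) and *Pim1* (-0.98 ± 0.12, adjusted p = 1.2e-05) and the adhesion receptor gene *Icam1* (-1.05 ± 0.13, adjusted p = 1.2e-05) fell, in contrast to *Pim2* above. Of the members called, the receptor subunits changed least, and in TPM their groups overlapped. *Lifr* (-0.30 ± 0.090, adjusted p = 0.029) and *Il6st*, which encodes gp130 (-0.35 ± 0.099, adjusted p = 0.022), each lost the call on leaving out any 1 of the 4 libraries (adjusted p between 0.098 and 0.16 for *Lifr* and between 0.069 and 0.19 for *Il6st*). *Gbx2* fell (-0.96 ± 0.24, adjusted p = 0.0082) but was not called with transcript lengths as offsets (adjusted p = 0.071). *Myc* (0.01 ± 0.11, adjusted p = 0.97) and *Jak1* (-0.19 ± 0.16, adjusted p = 0.52) were not called. Nor was *Socs1*, which was at 1.84 and 0.997 TPM and then higher, at 2.83 and 3.09 TPM (0.97 ± 0.43, adjusted p = 0.15).

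The promoter of *Socs3* is shown because this gene had the largest fall of the list and STAT dimers bind the palindrome TTCNNNGAA. The motif, searched on both strands in windows from 250 bases before to 50 after each RefSeq start (GRCm38.p6), was in 8.3% of all 32851 promoters, in 6.91% of those of genes tested and in 6.15% of those of genes that fell. Of 14 promoters of the 12 members that fell, 2 held it, those of *Socs3* and *Icam1*. The stretch below is 60 bases of the minus strand at chr11:117969486-117969545, with the motif in capitals, its first base 154 bases before the RefSeq start. In GENCODE M21 it lies inside the *Socs3* gene (chr11:117966079-117970047), in no exon.
Socs3: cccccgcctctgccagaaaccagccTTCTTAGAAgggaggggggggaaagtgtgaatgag

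Genes of the FGF and ERK pathway went both ways. Of 20 members tested, 7 rose and 5 fell, against a background of 7.54% and 7.47%, and without the first 24 h library 4 rose and 5 fell. *Fgf4*, the main ERK-activating ligand of ESCs, was at 104 and 97.9 TPM and then at 138 and 149 TPM (log2 change 0.45 ± 0.085, adjusted p = 0.00088). *Fgfr2* was at 1.95 and 1.46 TPM and then at 4.14 and 5.36 TPM (1.62 ± 0.31, adjusted p = 0.00086). The groups of neither overlapped, but *Fgfr2* was not called with transcript lengths as offsets. Among targets and feedback inhibitors of ERK, *Spry4* (-0.75 ± 0.089, adjusted p = 5.1e-06), *Spred1* (-0.64 ± 0.10, adjusted p = 0.00014) and *Etv4* (-0.91 ± 0.15, adjusted p = 0.00030) fell. *Dusp5*, a phosphatase of ERK, rose from 8.14 and 6.82 TPM to 12.8 and 10.8 TPM (0.60 ± 0.18, adjusted p = 0.032), a call lost without the first 24 h library (adjusted p = 0.27) or the second ESC library (adjusted p = 0.21). *Phlda1*, a target of ERK, rose from 8.32 and 7.46 TPM to 18 and 11.6 TPM (0.78 ± 0.24, adjusted p = 0.036), and was called again only without the second 24 h library (adjusted p between 0.091 and 0.42 without any of the others). The groups of both were apart, and neither was called with transcript lengths as offsets. In the same class, *Etv5* (0.17 ± 0.070, adjusted p = 0.11), *Dusp6* (-0.27 ± 0.17, adjusted p = 0.36), *Dusp4* (0.24 ± 0.19, adjusted p = 0.47) and *Spry1* (-0.22 ± 0.19, adjusted p = 0.52) were not called.

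The largest fall among well-expressed genes was that of *Egr1*, a zinc finger factor induced within minutes by serum and ERK. It had 2368 and 3014 counts in ESCs and 24 and 75 counts in spheroids, or 35.7 and 46.1 TPM and then 0.313 and 1.04 TPM. The 24 h libraries lay far under the ESC libraries but differed between themselves (log2 change -5.97 ± 0.57, adjusted p = 0.00054). At 48 h *Egr1* was at 3.49 and 2.13 TPM, above both 24 h libraries. *Fos*, an immediate early gene of the same kind, was at 8.85 and 12.8 TPM and then at 0.659 and 0.679 TPM, and did not pass the test (-4.68 ± 1.5, adjusted p = 0.079). For these immediate early genes, harvest and time cannot be told apart.

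Nodal and BMP genes also went both ways. Of 19 tested, 5 rose and 5 fell, the shares of all genes tested being 7.54% and 7.47%. *Nodal* was at 46.4 and 41.0 TPM in ESCs and at 47.6 and 48.3 TPM in spheroids (log2 change 0.08 ± 0.14, adjusted p = 0.81). Its targets and secreted inhibitors *Lefty1* and *Lefty2* were at 99.9 and 94.8 TPM and at 166 and 171 TPM in ESCs, and at 27.6 and 21.2 TPM and at 36.1 and 38.5 TPM in spheroids. Both fell more than 4-fold, by log2 changes of -2.13 ± 0.12 (adjusted p = 2.9e-10) and -2.23 ± 0.17 (adjusted p = 4.3e-06), and stood higher again at 48 h, at 108 and 99.6 TPM for *Lefty1* and at 102 and 97.2 TPM for *Lefty2*. *Skil*, a SMAD corepressor, was at 25.6 and 25.3 TPM and then at 50.8 and 54.0 TPM (0.98 ± 0.087, adjusted p = 1.1e-07).

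For BMP, the ligand gene *Bmp4* fell while the *Id* genes rose, and *Smad6* and *Smad7* of the same list were not called. *Bmp4* was at 131 and 150 TPM and then at 45.9 and 35.4 TPM (log2 change -1.82 ± 0.13, adjusted p = 8.9e-09). *Id1*, a helix-loop-helix inhibitor induced by BMP and SMAD1, was at 121 and 110 TPM and then at 463 and 422 TPM (1.88 ± 0.13, adjusted p = 2.7e-07). *Id3* was at 45.3 and 42.8 TPM and then at 179 and 183 TPM (1.94 ± 0.11, adjusted p = 2.4e-10). None of these groups overlapped, and *Id2* rose as well (0.95 ± 0.096, adjusted p = 7.7e-07). At 48 h *Id1* stood at 222 and 252 TPM, under both 24 h libraries.

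In the Wnt pathway, 4 of 17 members tested rose and 1 (*Notum*) fell, against 7.54% and 7.47% of all genes tested, and without any 1 of the 4 libraries 4 rose and none fell. *Lef1*, a nuclear partner of beta-catenin, was at 1.98 and 3.47 TPM and then at 24.7 and 14.4 TPM (log2 change 2.77 ± 0.21, adjusted p = 1.6e-08). *Tcf7l1*, which represses naive genes, was at 70 and 59.2 TPM and then at 113 and 98.7 TPM (0.64 ± 0.089, adjusted p = 3.4e-05), and *Fzd7*, a receptor of Wnt ligands, at 26.2 and 24.0 TPM and then at 50.4 and 47.4 TPM (0.91 ± 0.098, adjusted p = 1.6e-06). The groups of all 3 were apart. *T*, the mesoderm factor and Wnt target also called brachyury, stayed between 0.747 and 2.58 TPM in the 4 libraries (-0.32 ± 0.83, adjusted p = 0.88).

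**Figure D3:**
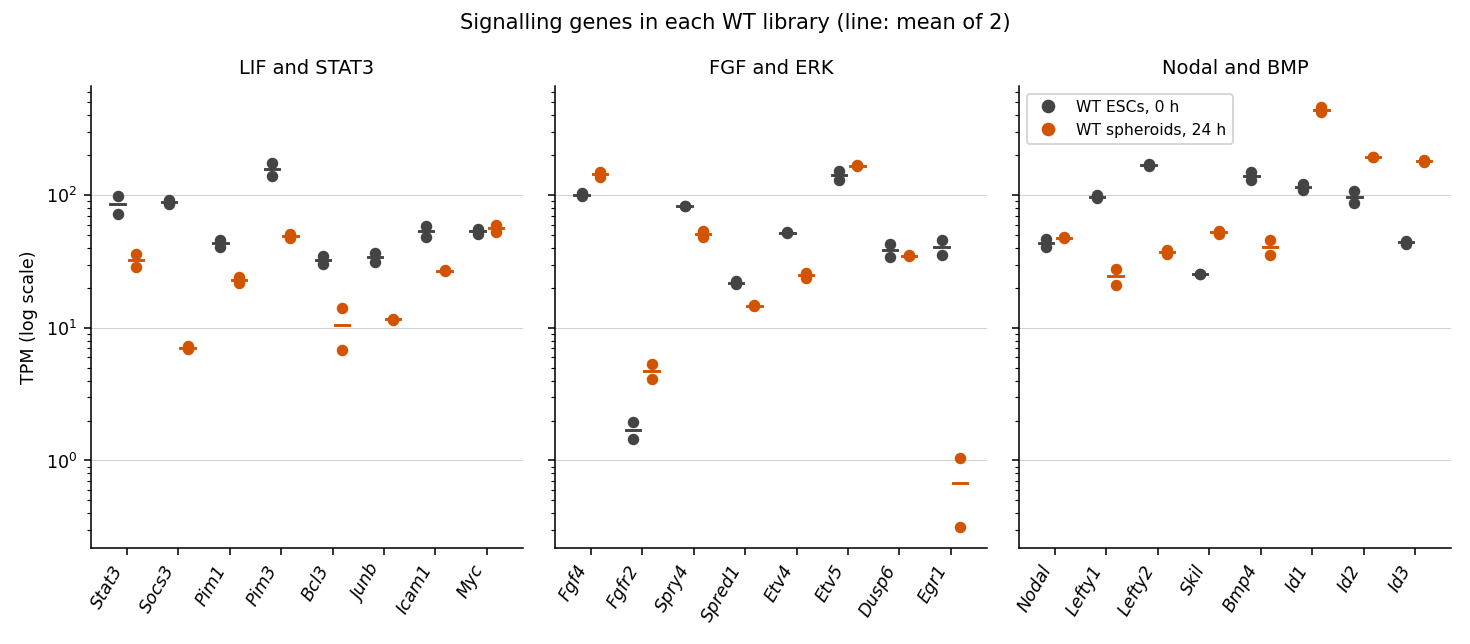
TPM on a log axis for signalling genes in the 2 libraries of WT ESCs (dark points) and the 2 of WT spheroids at 24 h (orange points), with a line at each mean. *Socs3* (85.4 and 91.6 TPM, then 7.30 and 6.90 TPM), *Egr1*, *Lefty1*, *Lefty2* and *Bmp4* lie lower at 24 h and the *Id* genes higher, while *Nodal* and *Myc* differ little.

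The stress list holds heat shock genes, immediate early genes and genes of the amino acid response, in which ATF4 induces transcripts when amino acids are short or proteins are misfolded. Of 16 members tested, 8 fell and 1 (*Hspa5*) rose, where 7.47% and 7.54% of all genes tested did, and between 6 and 8 fell and 0 or 1 rose when 1 library was left out. Those that fell were the immediate early genes *Egr1*, *Junb*, *Jun* and *Ier2* and the amino acid response genes *Chac1*, *Trib3*, *Ddit3* and *Asns*. *Egr1* had the largest fall of them, as given above. *Jun* (-1.05 ± 0.31, adjusted p = 0.028) was called again only without the second ESC library, and *Ier2* (-0.38 ± 0.10, adjusted p = 0.014) lost its call without the first ESC library (adjusted p = 0.13) or the second 24 h library (adjusted p = 0.14). *Chac1*, which degrades glutathione, was at 19.8 and 20.3 TPM in ESCs and at 1.69 and 3.45 TPM in spheroids (log2 change -3.01 ± 0.39, adjusted p = 3.9e-05). *Trib3*, a pseudokinase that restrains ATF4, was at 32.0 and 29.5 TPM and then at 6.39 and 5.62 TPM (-2.32 ± 0.22, adjusted p = 2.4e-07). *Ddit3*, which encodes CHOP, was at 17.3 and 24.4 TPM and then at 6.92 and 8.23 TPM (-1.75 ± 0.33, adjusted p = 0.00087). In all 3 the groups did not overlap, as in *Asns*, asparagine synthetase, which was at 324 and 345 TPM and then at 159 and 172 TPM (-1.02 ± 0.083, adjusted p = 3.4e-08). *Atf3* (-1.81 ± 0.72, adjusted p = 0.11) and the heat shock genes *Hspa1a* (0.65 ± 0.32, adjusted p = 0.21) and *Hspa1b* (0.67 ± 0.31, adjusted p = 0.19), near-identical copies whose reads cannot be told apart, did not pass the test.

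Promoters of this list are shown because ATF4 dimers bind the composite element TGATGNAA. It was found on either strand in 3.97% of all promoters, in 2.5% of those of genes tested, in 3.54% of those of genes that fell and in 1.62% of those of genes that rose. Promoters of 6 of the 8 members that fell were in the table, and 3 held the element, those of *Chac1*, *Trib3* and *Asns*. The 2 stretches below run along the gene strand, with the element in capitals, read on the opposite strand as TGATGCAA in *Chac1* and TGATGTAA in *Trib3*. That of *Chac1* lies at chr2:119351023-119351082, 147 bases upstream of the GENCODE M21 gene, with the element 193 bases before the RefSeq start. That of *Trib3* lies at chr2:152344037-152344096 on the minus strand, 5 bases upstream of the GENCODE gene, and its element begins 15 bases into the RefSeq transcript.
Chac1: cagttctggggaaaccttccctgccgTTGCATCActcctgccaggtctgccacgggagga
Trib3: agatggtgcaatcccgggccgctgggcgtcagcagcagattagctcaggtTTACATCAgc

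Enzymes of threonine, glycine and serine metabolism, which supply 1-carbon units and on which mouse ESCs depend, were lower. Of 14 tested, 7 fell and 1 rose, beside 7.47% and 7.54% of all genes tested, and each leave-one-out fit gave the same numbers. *Tdh*, threonine dehydrogenase, was at 585 and 576 TPM in ESCs and at 331 TPM in both spheroid libraries (log2 change -0.85 ± 0.062, adjusted p = 8.4e-09). *Mthfd2*, a mitochondrial folate enzyme, was at 95.5 and 92.1 TPM and then at 40.6 and 42.0 TPM (-1.28 ± 0.10, adjusted p = 2.5e-08). *Psat1* of serine synthesis was at 184 and 189 TPM and then at 80.6 and 89.3 TPM (-1.20 ± 0.079, adjusted p = 2e-09). The replicates of these 3 were tight and the groups apart. *Shmt2* (-0.94 ± 0.089), *Phgdh* (-0.61 ± 0.12), *Gldc* (-0.52 ± 0.078) and *Mthfd1l* (-0.51 ± 0.084) fell too. *Mat2a*, which makes S-adenosylmethionine, the methyl donor, was at 143 and 148 TPM and then at 216 and 219 TPM (0.62 ± 0.069, adjusted p = 2.5e-06).

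In the glycolysis and hypoxia list, 11 of 21 members fell and none rose, against 7.47% of all genes tested that fell and 7.54% that rose. The number that fell was 6 without the first ESC library and 7 without either 24 h library. *Pfkp*, a phosphofructokinase, was at 218 and 201 TPM and then at 98.9 and 104 TPM (log2 change -1.01 ± 0.096, adjusted p = 7.1e-07), and *Hk2*, hexokinase 2, at 85.3 and 72.4 TPM and then at 46.2 and 50.7 TPM (-0.76 ± 0.090, adjusted p = 5.1e-06). *Pgk1* (-0.71 ± 0.070), *Pfkl* (-0.62 ± 0.081) and the glucose transporter gene *Slc2a3* (-0.56 ± 0.071) also fell, each in every leave-one-out fit. The most abundant members did not pass the test: *Gapdh* (-0.03 ± 0.049, adjusted p = 0.80), *Ldha* (-0.04 ± 0.070, adjusted p = 0.79) and *Eno1* (0.14 ± 0.057, adjusted p = 0.11). *Vegfa*, the angiogenic growth factor induced by hypoxia, was at 26.8 and 28.6 TPM and then at 5.46 and 4.45 TPM (-2.54 ± 0.51, adjusted p = 0.011). Its call was lost on leaving out any 1 of the 4 libraries, with an adjusted p between 0.051 and 0.098 and a log2 change between -2.92 and -2.24. None of the 13 mitochondrially encoded genes tested was called in edgeR, and 3 had an unadjusted p under 0.05, all lower. Other settings called some of them lower and none higher: 11 with no filter on low counts, 5 in a fit of the 4 libraries alone, 3 by DESeq2, 2 with transcript lengths as offsets and 1 by limma. Their summed level was 72900 and 63400 TPM in ESCs and 51600 and 58400 TPM at 24 h, so the 24 h libraries lay under both ESC libraries.

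In the main fit, genes of the apical domain and of junctions rose or did not pass the test. Of 19 members tested, 6 rose and none fell, against 7.54% and 7.47% of all genes tested, and between 4 and 5 rose with 1 library left out. *Cdh1*, which encodes E-cadherin, was at 118 TPM in both ESC libraries and at 196 and 206 TPM in spheroids (log2 change 0.66 ± 0.058, adjusted p = 1e-07). *Cldn6*, a tight junction claudin, was at 17.6 and 17.4 TPM and then at 43.4 and 44.3 TPM (1.26 ± 0.13, adjusted p = 7.8e-07). *Podxl*, the sialoprotein of the apical membrane, was at 18 and 24.4 TPM and then at 25.6 and 30.1 TPM (0.59 ± 0.095, adjusted p = 0.00020). Its groups lay close together, unlike those of *Cdh1* and *Cldn6*, and with transcript lengths as offsets it was not called. *Cgn* and *Cldn7*, called higher in the main fit, were also lost with these offsets, which left 3 members higher. DESeq2 called 6 members higher and 1 lower. *Slc9a3r1*, a scaffold under the apical membrane, rose as well (0.70 ± 0.10, adjusted p = 4.6e-05). Core polarity genes were not called, among them *Pard3* (-0.18 ± 0.081, adjusted p = 0.16), *Prkci* (-0.24 ± 0.082, adjusted p = 0.058), *Pard6b* (0.32 ± 0.15, adjusted p = 0.18) and *Tjp1* (0.18 ± 0.080, adjusted p = 0.14).

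Basement membrane and integrin genes went both ways, with 4 higher and 5 lower of 17, against 7.54% and 7.47% of all genes tested. *Lama1*, the alpha chain of laminin-111, was at 22.6 and 20.4 TPM in ESCs and at 5.18 and 5.28 TPM in spheroids (log2 change -2.23 ± 0.14, adjusted p = 1e-09). *Nid1*, which links laminin to collagen IV, was at 76.6 and 64.6 TPM and then at 24.9 and 30.9 TPM (-1.34 ± 0.12, adjusted p = 1.1e-06). *Lamc1* was at 123 and 118 TPM and then at 76.3 and 72.5 TPM (-0.70 ± 0.068, adjusted p = 4.8e-07). These 3 genes fell without overlap. *Lamb1*, the beta chain that joins these laminin chains, rose from 18.2 and 19.8 TPM to 25.3 and 25.7 TPM (0.37 ± 0.088, adjusted p = 0.0055), a call lost without the first ESC library (adjusted p = 0.076) or with transcript lengths as offsets (adjusted p = 0.065). *Col4a1* was not called (-0.04 ± 0.11, adjusted p = 0.88). Of the laminin receptors, *Itga3* rose from 13.2 and 13.6 TPM to 31.8 and 18.5 TPM (0.66 ± 0.13, adjusted p = 0.0012), and *Itga6* was not called (0.05 ± 0.083, adjusted p = 0.81). Without the first ESC library or the first 24 h library 2 rose and 3 fell, without the second ESC library 2 rose and 5 fell, and without the second 24 h library 4 rose and 3 fell.

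**Figure D4:**
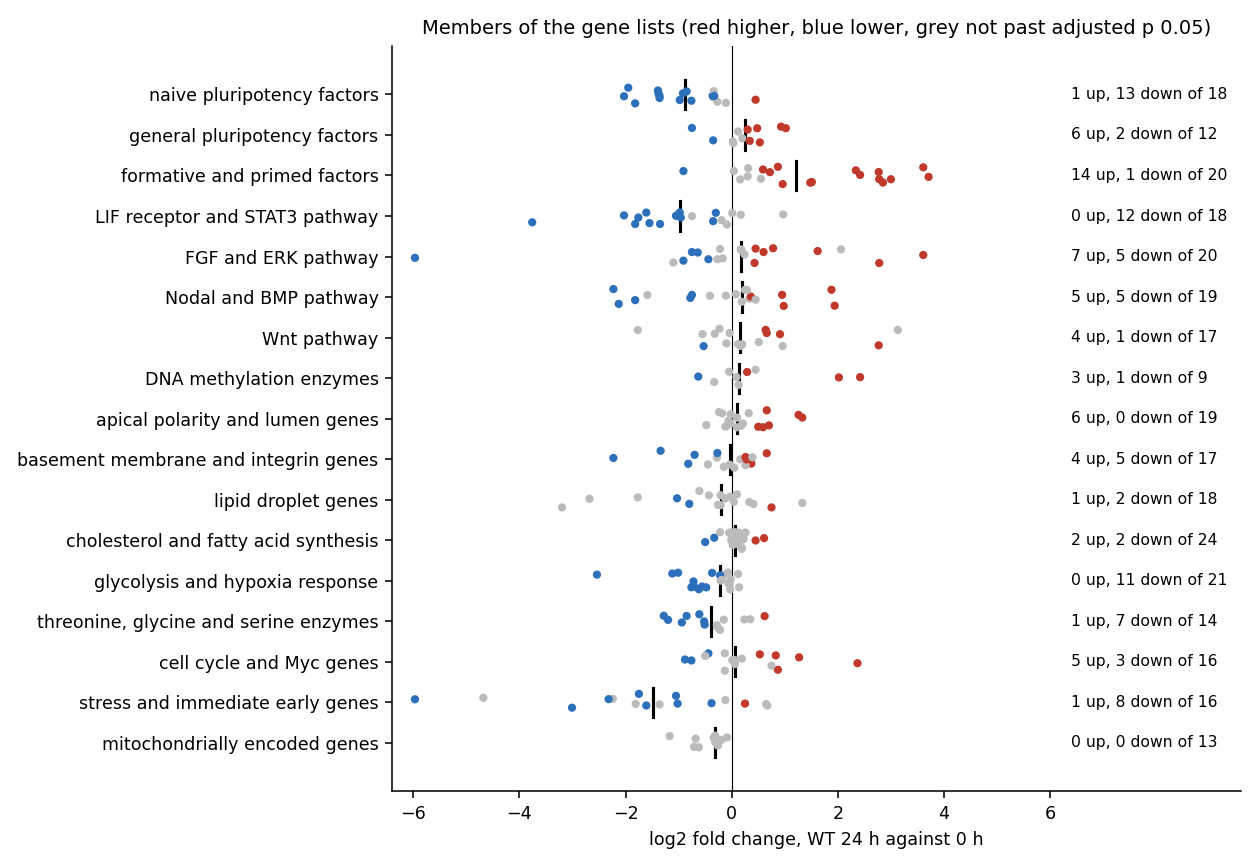
Each row is a gene list and each point a member, placed by its log2 fold change between WT spheroids at 24 h and WT ESCs at 0 h, red where it rose, blue where it fell and grey where it did not pass an adjusted p of 0.05. Black bars mark list medians, which run from -1.48 for the stress list and -0.97 for LIF and STAT3 to 1.22 for formative and primed factors.

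*Cidea*, which fuses lipid droplets and is deleted in the KO libraries of the series, was low and uneven in WT cells. It had 89 and 67 counts in ESCs and 117 and 46 counts in spheroids, or 4.07 and 3.17 TPM and 5.06 and 1.88 TPM. The groups overlapped, and the log2 change of -0.12 ± 1.1 (adjusted p = 0.97) left a wide margin. At 48 h it was at 0.974 and 0.836 TPM. Among 18 lipid droplet genes tested, 2 fell and 1 rose, near the 7.47% and 7.54% of all genes tested. *Plin2*, the ubiquitous droplet coat protein, was at 18.8 and 14.6 TPM and then at 11.5 and 9.62 TPM (-1.03 ± 0.23, adjusted p = 0.0035), a call lost without the first ESC library (adjusted p = 0.055) or the first 24 h library (adjusted p = 0.061). *Lipe*, hormone-sensitive lipase (-0.80 ± 0.26, adjusted p = 0.038), was not called without any 1 of the 4 libraries (adjusted p between 0.10 and 0.28), nor was *Fitm2*, which acts in droplet budding (0.75 ± 0.18, adjusted p = 0.0052), without the first 24 h library (adjusted p = 0.067) or the second ESC library (adjusted p = 0.097). *Pnpla2*, which encodes the lipase ATGL, was not called (-0.03 ± 0.15, adjusted p = 0.95).

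Of 24 sterol and fatty acid synthesis genes, 2 rose and 2 fell, near the background of 7.54% and 7.47%, and the median log2 change was 0.07. *Sqle*, squalene epoxidase, was at 31.6 and 38.7 TPM and then at 55.8 and 56.2 TPM (0.61 ± 0.11, adjusted p = 0.00081). *Scd2*, a desaturase, was at 202 and 199 TPM and then at 143 and 151 TPM (-0.50 ± 0.075, adjusted p = 8e-05). Both were apart between the groups. *Fasn*, fatty acid synthase, was not called (0.14 ± 0.071, adjusted p = 0.23).

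Among the cell cycle genes called, *Myc* family members and G1 cyclins rose, while kinase inhibitors and the kinase gene *Cdk2* fell. *Mycn* was at 41.9 and 39.8 TPM and then at 108 and 96.3 TPM (log2 change 1.27 ± 0.085, adjusted p = 2.8e-09). *Ccnd1*, which encodes cyclin D1, was at 61.1 and 53.8 TPM and then at 107 and 110 TPM (0.87 ± 0.081, adjusted p = 2.4e-07), and *Ccne1* rose as well (0.53 ± 0.080, adjusted p = 9.6e-05). The kinase inhibitor genes *Cdkn1b* (-0.88 ± 0.12, adjusted p = 2e-05) and *Cdkn1a* (-0.76 ± 0.14, adjusted p = 0.00056) fell. *Cdk2* (-0.44), *Ccnd2* (2.37) and *Mycl* (0.83), all called in the main fit, were not called with transcript lengths as offsets. Over the list of 16, 5 rose and 3 fell, against 7.54% and 7.47% of all genes tested, while the mitotic *Ccnb1* (0.06 ± 0.069, adjusted p = 0.66) and *Ccna2* (-0.13 ± 0.079, adjusted p = 0.33) were not called. Of 9 two-cell-like genes, 6 were tested and only *Gm21761* was called higher, with no counts in either ESC library and 92 and 79 counts at 24 h, at least 25.1-fold higher than a floor of 3 counts in an ESC library. Members of such families are close copies, so their values are uncertain.

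The same interval in KO cells shares no library with the WT interval. In KO cells 3235 genes (18.6% of those tested) were called between 0 and 24 h. A total of 1915 genes were called in the same direction in both genotypes, which was 73.2% of the WT calls and 59.2% of the KO calls, and none was called in opposite directions. The log2 change in KO cells was -3.96 for *Socs3*, -1.88 for *Klf4*, -1.48 for *Esrrb*, 2.34 for *Dnmt3b* and 1.97 for *Dnmt3a*. A test of the difference between the 2 changes passed the threshold in edgeR for 2 genes (0.0115%), *Pou3f1* and *Grhl2*, and 1029 genes had an unadjusted p under 0.05. All KO libraries came from 1 clone.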

How the data were processed

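RNA of R1 ESCs and spheroids was sequenced from stranded mRNA libraries (TruSeq), 2 per genotype and time. Per the submitters' processing notes, reads were checked with FastQC, trimmed with Trimmomatic 0.33 and quantified with kallisto 0.43.1, with builds mm10 and GRCm38 named. The strand setting and transcript set are not given in the sources used here. The deposited tables hold, per transcript, estimated counts (expected counts, not scaled) and TPM, which the authors' run scaled by effective length and depth. The effective lengths in the authors' tables served only as offsets in an alternative.

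Transcripts were matched to GENCODE M21 (113580 of 115270, 98.5%) and summed over 35580 genes, and count sums were rounded. The smallest detectable share, 3 counts, was 0.0849 to 0.0994 counts per M counts (CPM) in the 4 libraries and covers counting error only. Counts of all 12 libraries were fitted with edgeR 4.0.16 (R 4.3.3; TMM, filterByExpr, robust quasi-likelihood F-test, one mean per group), with Benjamini-Hochberg adjustment over 17424 genes and a threshold of 0.05. SE values were derived from the F statistic. A second contrast tested the KO minus WT difference of the change. In counts simulated for the WT comparison over 17424 genes, edgeR recovered 74 of 100 genes changed 2-fold and 89 of 100 changed 4-fold, with 14 false calls. On the same simulated counts DESeq2 recovered 77 and 90, with 57 false calls. The 2 ESC libraries differed by a chi-square of 16.5 per degree of freedom and the 24 h libraries by 14.3, so none was a copy. Alternatives used DESeq2 1.42.0, limma 3.58.1 on log2(TPM) with a pseudocount of 1 or 0.1, other filters and scalings, and left out each library.

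Genes were named by rule. The rule took the 10 largest rises and 10 largest falls among calls whose groups did not overlap in TPM. The mean log2 CPM of these calls over all 12 libraries had to reach 3. It then took the 5 largest rises and falls in mean TPM, *Cidea*, and list members. Promoter sequences are RefSeq's (GRCm38.p6). The comparison, lists and rules were chosen with earlier results of these data known. Some list members are counted but not reported here by name.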

Additional observations from a re-analysis of the deposited data

Results flagged for a closer look

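The change from 0 to 24 h differed between KO and WT cells in 2 genes by the interaction term. *Pou3f1* rose less in KO cells, by -1.94 ± 0.24 on the log2 scale (adjusted p = 0.0029). It was at 1.95 and 1.54 TPM in KO ESCs and at 5.65 and 6.56 TPM in KO spheroids at 24 h, against 15.8 and 12.6 TPM in WT spheroids, and the KO and WT 24 h libraries did not overlap. *Grhl2* rose more, by 1.12 ± 0.15 (adjusted p = 0.0044). Its level at 24 h was 40.4 and 32.2 TPM in KO and 38.8 and 37.7 TPM in WT spheroids, which overlap, while KO ESCs lay lower at 0 h (3.49 and 2.44 TPM, against 6.39 and 7.47 TPM). Neither was called with transcript lengths as offsets (adjusted p = 0.13 for *Pou3f1* and 0.58 for *Grhl2*). The call of *Grhl2* was also lost without the first WT 24 h library (adjusted p = 0.055) or the second KO ESC library (adjusted p = 0.077). Without the KO 24 h library that stood apart, the differences were -1.87 and 1.02. The KO cells were 1 clone, so loss of *Cidea* and other traits of that clone cannot be told apart. Groups of 2 libraries are too small for a search for outlying samples.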

How the results depend on the processing

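The 2615 genes called (1313 higher, 1302 lower) came to 2590 with the replicate block over 12 libraries and 3169 with the block over the 4 libraries. The replicate numbers were not taken to pair the samples, since no label says that they mark a shared culture or day. Deviations of same-numbered libraries correlated at 0.032, which over only 2 pairs cannot decide on a pairing. Fewer genes were called with transcript lengths as offsets (1319, 675 higher and 644 lower), by limma on log2(TPM + 1) (1362, 790 and 572) or log2(TPM + 0.1) (1296, 792 and 504), at an adjusted p under 0.01 (1525, 736 and 789), and by glmTreat against a fold of 2 (175, 78 and 97). The share that fell was 49.8% in the main fit and 42.0% and 38.9% by limma. With 1 of the 4 libraries left out, in fits that assume the lone library varies like the others, 1326 to 1925 genes were called, 677 to 962 higher and 649 to 963 lower. The cause of these differences was not tested. DESeq2 called 3032, and without the KO library that stood apart edgeR called 3543 (1782 higher, 1761 lower). No gene shared between the main calls and those of an alternative was called in the opposite direction. *Il6st* had a log2 change of 0.01 in both limma fits, in place of -0.35. Of 156 called genes that were named or in a list, 114 stayed called with each of the 4 libraries left out and 127 with length offsets. Those lost with offsets include *Fgfr2*, *Podxl*, *Plin2* and *Ccnd2*.

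The 2 genes whose change differed between KO and WT came to 14 by DESeq2, 82 with no filter, 7 with at least 10 counts in each library, 0 with length offsets and 3 with the replicate block. With 1 library left out there were 1 to 1069, the last without the second KO 24 h library, which leaves the group to the library that stood apart. Leaving out KO libraries was chosen after seeing the data. With 2 libraries a group, real changes can go uncalled. In the simulated counts edgeR recovered 74 of 100 genes changed 2-fold. Neither smaller changes nor changes in genes of low counts were simulated.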

Other observations

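Several of the genes with the largest changes belong to none of the lists. *Vrtn* was at 0.238 and 0.140 TPM in ESCs, at 8.02 and 7.79 TPM at 24 h and at 22.2 and 20.9 TPM at 48 h (log2 change from 0 to 24 h 5.61 ± 0.33, adjusted p = 5.6e-10). *Enpp2*, which encodes autotaxin, the enzyme that makes lysophosphatidic acid, was at 0.334 and 0.187 TPM, then at 3.34 and 3.15 TPM and at 48 h at 13.4 and 11.2 TPM (3.70 ± 0.43, adjusted p = 8.3e-06). *Gadd45g*, a stress-inducible growth regulator, was at 2.47 and 1.05 TPM and then at 25.5 and 18.1 TPM (3.55 ± 0.36, adjusted p = 7.4e-07). The guidance ligand gene *Sema6a* rose by 3.41 ± 0.42 (adjusted p = 7.5e-05). In each of these genes both spheroid libraries lay above both ESC libraries.

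Among the falls, *Grin1*, a subunit of the NMDA receptor, was at 9.81 and 11.3 TPM and then at 1.39 and 1.80 TPM (-3.44 ± 0.46, adjusted p = 0.00016). With transcript lengths as offsets its log2 change was -2.78 (adjusted p = 0.014). *Serpinb6c*, a protease inhibitor with close paralogs and therefore uncertain values, was at 42.6 and 32.7 TPM and then at 3.49 and 5.13 TPM (-3.27 ± 0.44, adjusted p = 0.00021). *Patl2*, an RNA-binding repressor of translation in oocytes, fell by 3.13 on the log2 scale (adjusted p = 2.8e-07). A pair of lysosomal genes, chosen after their values were seen, also fell. *Tfeb*, the transcription factor of lysosome genes, had 2548 and 2734 counts in ESCs and 644 and 518 counts at 24 h, a 5.21-fold fall, and *Hexa*, a lysosomal hexosaminidase, had 3809 and 3775 counts and then 721 and 922 counts, a 5.32-fold fall. No group of lysosomal genes was tested.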
